A study of Mus musculus with 8 samples.

Results

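The 9 genes described here, *Atf4*, *Atf5*, *Ddit3*, *Atf3*, *Trib3*, *Chac1*, *Ppp1r15a*, *Sesn2* and *Ddit4*, encode transcription factors, feedback regulators and effectors of the integrated stress response. They were taken by their symbols from the 41325 gene rows of 8 RNA-seq libraries. RPKM, the unit of these libraries, is the number of reads of a gene divided by the length of its exons and by the mapped reads of the library. An RPKM above 1 in 1 or more of the libraries was reached by 11513 genes, called expressed genes below, and all 9 were among them. The symbols were selected on their place in the pathway and on RPKM values of these same libraries that were already known, so their levels, ratios and counts are a description and none of them is a test.

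The integrated stress response begins with kinases that phosphorylate the translation factor eIF2α when amino acids run short, unfolded proteins build up in the endoplasmic reticulum (ER), heme is lacking or double-stranded RNA appears. General translation then slows, while the mRNA of the transcription factor ATF4 is translated more efficiently, and ATF4 with partners such as CHOP, encoded by *Ddit3*, induces genes of amino acid supply, redox balance and cell death. GADD34, encoded by *Ppp1r15a*, guides a phosphatase back to eIF2α and so closes the loop. The mRNAs of *Atf4*, *Atf5*, *Ddit3* and *Ppp1r15a* carry upstream reading frames that control their translation, and an mRNA level is therefore no measure of the protein. In fat cell precursors, CHOP is known as an inhibitory partner of the C/EBP factors that drive adipogenesis.

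Mouse C3H10T1/2 cells, which are mesenchymal stem cells (MSCs) grown as a line, were compared with stable lines expressing an shRNA against *Kdm4d* (shKDM4D), *Nfib* (shNFIB) or *Mll1*, now named *Kmt2a* (shMLL1), and the control cells are called shControl and labelled as wild type. The knockdown lines were raised from puromycin-resistant clones after transfection of a pLKO.1 vector, so that a difference from shControl cells cannot be told apart from a difference between clones. The 4 lines were sequenced at day 0 and at day 5 of adipogenic differentiation, with 1 library for each line and day. Day 0 cells were confluent and not induced, whereas day 5 cells had received 10 µg/ml insulin, 1 µM dexamethasone and 0.5 mM isobutylmethylxanthine in 10% fetal bovine serum until day 2, then insulin alone for 2 days and then serum medium. No p-value is given, because there is no estimate of the spread between cultures. The 95% intervals were computed from the reads behind each RPKM and cover counting error only, as reads amplified by PCR are not independent molecules. In such bulk samples, fewer cells of a type and less RNA per cell cannot be told apart.

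Promoters of the 9 genes were read from the RefSeq table of GRCm38.p6, in which all 9 matched with 10 windows, since *Atf5* has more than 1 start. Each window spans 250 bases before and 50 bases after the start. The C/EBP-ATF element, written here as TGATGNAA and bound by ATF4 together with a C/EBP factor, was found on either strand in 3 of the 10 windows and in 3.97% of the 32851 promoters of the table. The cyclic AMP response element TGACGTCA, which reads the same on both strands, was found in 1 of the 10 windows and in 1.79% of all promoters. The following sequences are printed 5′ to 3′ on the strand of the gene. They end at the start given in the table or before the first annotated exon base, whichever comes first. The 3 promoters with a match in that stretch show it in capitals. *Trib3* and *Ddit3*, the members with the most marked changes but no match in that stretch, are added for comparison. These sequences lie at chr1:191183341-191183583 (*Atf3*, minus strand, inside the annotated span of the gene), chr2:119350992-119351228 (*Chac1*, plus strand), chr7:45526269-45526518 (*Ppp1r15a*, minus strand), chr2:152344061-152344310 (*Trib3*, minus strand) and chr10:127290543-127290773 (*Ddit3*, plus strand).
Atf3: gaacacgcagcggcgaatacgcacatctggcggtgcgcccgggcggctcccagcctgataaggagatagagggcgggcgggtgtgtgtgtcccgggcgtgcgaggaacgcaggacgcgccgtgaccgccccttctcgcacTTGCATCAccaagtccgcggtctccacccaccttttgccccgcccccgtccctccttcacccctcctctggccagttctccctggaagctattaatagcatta
Chac1: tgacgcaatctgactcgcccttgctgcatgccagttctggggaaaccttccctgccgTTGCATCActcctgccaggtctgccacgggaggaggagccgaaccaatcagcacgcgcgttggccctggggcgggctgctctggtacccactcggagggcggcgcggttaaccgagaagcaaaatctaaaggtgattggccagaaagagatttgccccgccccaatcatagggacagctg
Ppp1r15a: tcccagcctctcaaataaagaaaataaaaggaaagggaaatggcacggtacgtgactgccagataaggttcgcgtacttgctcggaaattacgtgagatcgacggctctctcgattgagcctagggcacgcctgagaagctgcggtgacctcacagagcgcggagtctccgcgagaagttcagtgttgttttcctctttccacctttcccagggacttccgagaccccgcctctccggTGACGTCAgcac
Trib3: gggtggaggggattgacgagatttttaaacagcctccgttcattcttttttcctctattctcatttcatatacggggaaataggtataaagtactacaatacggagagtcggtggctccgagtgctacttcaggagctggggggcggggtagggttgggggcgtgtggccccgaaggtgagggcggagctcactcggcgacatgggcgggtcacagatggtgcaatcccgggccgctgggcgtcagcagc
Ddit3: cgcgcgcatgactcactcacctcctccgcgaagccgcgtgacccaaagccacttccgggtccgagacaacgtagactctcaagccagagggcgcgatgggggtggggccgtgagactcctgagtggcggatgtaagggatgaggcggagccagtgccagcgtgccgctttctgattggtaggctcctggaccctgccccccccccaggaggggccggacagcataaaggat
The element of *Atf3* begins at position -110 from the start and that of *Chac1* at position -193, both with the letters TTGCATCA. In *Trib3*, TTACATCA begins 14 bases downstream of the start in the table, beyond the sequence shown. It still lies upstream of the annotated exons of *Trib3*, whose first base on the minus strand is 152344032. The cyclic AMP response element of *Ppp1r15a* begins at position -12. The matches describe letters only and no binding was measured here.

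The libraries held between 15842218 and 38202570 mapped reads, and the 72 values of the 9 genes all came out within 0.02 of a whole read. At least 7 of 8 mesenchymal markers had an RPKM over 1 in every library, and none of 4 blood cell markers did in any. The mesenchymal marker *Thy1* set lines apart, with 25.01 and 22.6 RPKM in shControl, 11.8 and 11.1 in shMLL1 and 0.0171 to 0.139 in shKDM4D and shNFIB cells, and its part in the results was not tested. Another, *Ly6a*, went from 81.5 at day 0 to 927 at day 5 in shMLL1 and from 90.6 to 340 in shNFIB cells. It went from 172 to 136 in shControl and from 191 to 109 in shKDM4D cells, and its part was not tested either. Of 4 endothelial and 4 epithelial markers, only *Tek* and *Cdh1* exceeded 1 in any library, with no value over 1.63. The summed RPKM of 8 adipocyte markers rose in shControl cells from 10.95 at day 0 to 831 at day 5, and at day 5 it was 12.5 in shMLL1, 12.1 in shNFIB and 39.1 in shKDM4D cells, while it lay between 4.12 and 7.42 in these lines at day 0. This difference therefore runs alongside every comparison of the lines at day 5 given below, and its part in them was not tested. Among the targeted genes, the log2 ratio at day 5 to shControl cells was -2.33 for *Nfib* (in shNFIB) and -1.70 for *Kmt2a* (in shMLL1), whereas *Kdm4d* was covered by only 4 reads in shKDM4D and 13 reads in shControl cells at day 5. Transcripts resembling ribosomal RNA took 7.95 to 10.5% of the reads at day 0 and 3.07 to 3.62% at day 5.

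For the members, the order of the 4 lines differed between day 0 and day 5. At day 0, 6 of the 9 genes were highest in shControl cells and the other 3 in shKDM4D cells, and 8 were lowest in shNFIB cells. At day 5, 7 were highest in shMLL1 cells and the other 2 in shNFIB cells, and 6 were lowest in shControl and 3 in shKDM4D cells. The same counts over all expressed genes were not made, so these have no background. Some places rest on differences within counting error. At day 0 this held for *Chac1*, *Ppp1r15a* and *Sesn2* between shControl and shKDM4D cells. It also held for *Ddit3*, *Atf5* and *Sesn2* between shMLL1 and shNFIB cells. With median-of-ratios scaling or quantile normalization, 1 member was highest in shControl and 1 in shNFIB cells at day 5. When each library was divided by its *Gapdh* value, which ranged from 159 to 326 RPKM over the 8 libraries with the lowest in shNFIB cells at day 0, 8 members were highest in shControl cells and 7 lowest in shMLL1 cells at day 0, and at day 5 4 were highest in shNFIB, 3 in shMLL1 and 2 in shKDM4D cells while the same number, 6, were lowest in shControl cells. From day 0 to day 5, 5 genes fell past 2-fold in the shControl line (background 8.56% of all expressed genes) and 1 rose (13.0%). In shKDM4D cells 2 fell (8.44%) and none rose (12.8%). In shNFIB cells 5 rose (12.6%) and none fell (4.96%), and in shMLL1 cells 6 rose (20.4%) and none fell (6.89%).

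**Figure D1:**
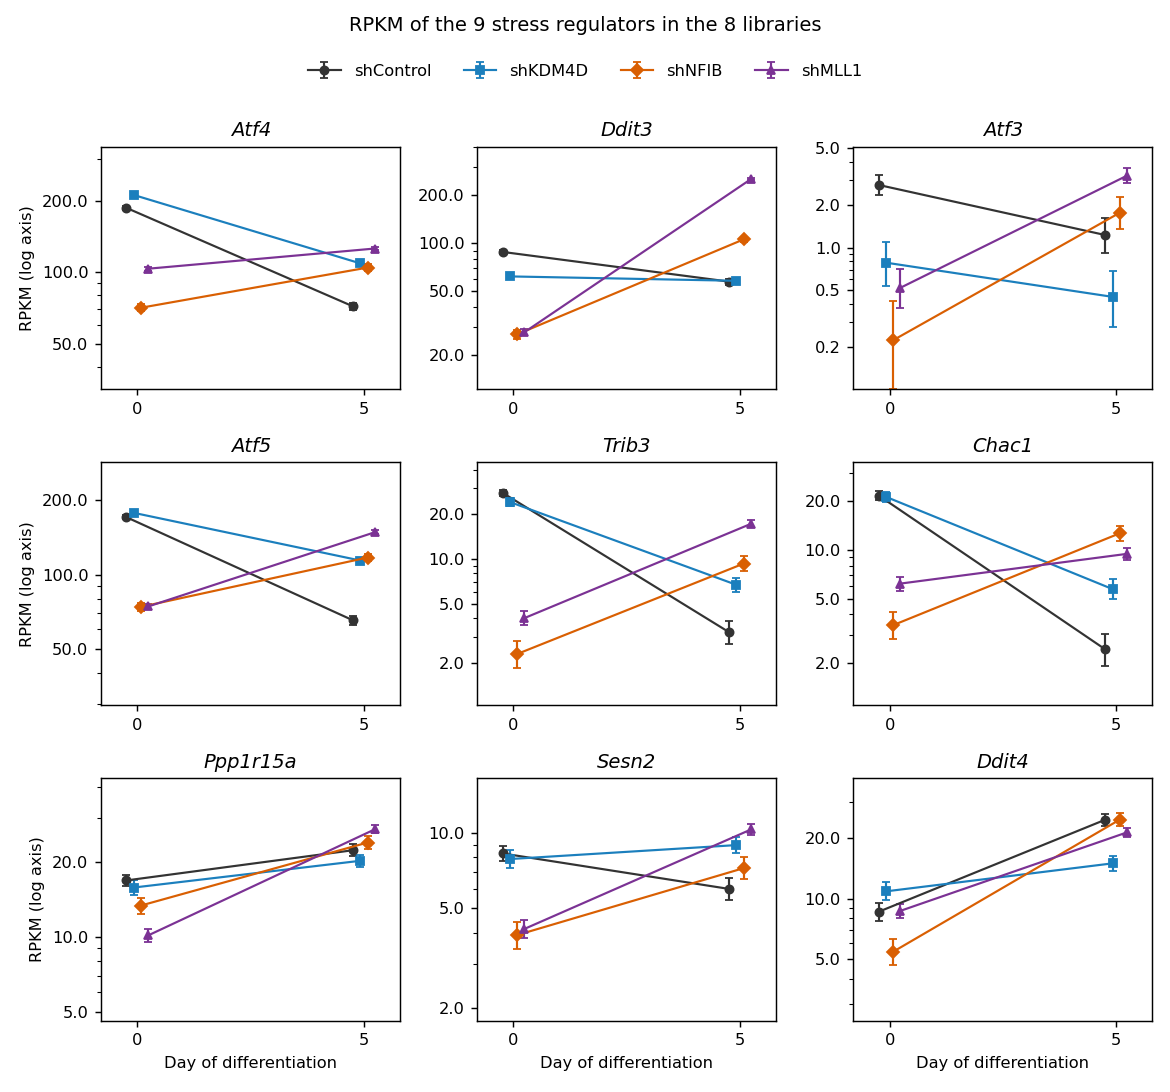
RPKM (log axis) of the 9 genes at day 0 and day 5, with 1 panel per gene and 1 point per library, joined by line (shControl black circles, shKDM4D blue squares, shNFIB orange diamonds, shMLL1 purple triangles), where the bars are exact 95% counting intervals. For *Trib3* the black and blue lines fall from 27.9 and 24.2 at day 0 while the orange and purple lines rise to 9.33 and 17.3 at day 5, and for *Ddit4* all 4 lines go up.

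*Atf4* (chromosome 15 of GRCm38, from 80255184 to 80257541, plus strand, protein coding) encodes the central factor of the response. Its RPKM was 187 at day 0 and 71.9 at day 5 in shControl cells, 212 and 109 in shKDM4D cells, 104 and 126 in shMLL1 cells, and 70.9 and 105 in shNFIB cells. The highest levels were those of shKDM4D and shControl cells before induction, and the 4 lines lay closer together at day 5 (1.75-fold between the highest and the lowest) than at day 0 (2.99-fold). The log2 ratio of day 5 to day 0 was -1.38 (95% interval -1.44 to -1.32) in shControl cells and -0.96 (-1.01 to -0.91) in shKDM4D cells. In shMLL1 cells it was 0.28 (0.24 to 0.32), close to the median of 0.17 over all expressed genes. In shNFIB cells it was 0.56 (0.49 to 0.63) on the deposited scale but -0.0026 relative to *Gapdh*. Against shControl cells at day 0, *Atf4* was lower in shNFIB cells, with a log2 ratio of -1.40 (-1.46 to -1.34) that came to -0.76 relative to *Gapdh*, and the ratio in shMLL1 cells was -0.85 (-0.89 to -0.81). At day 5 the ratios to shControl cells were 0.81 in shMLL1, 0.54 in shNFIB and 0.60 in shKDM4D cells, all under 2-fold. The values of shControl cells at day 5 and shNFIB cells at day 0 differed by less than their counting error.

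*Atf5* (chromosome 7, from 44812256 to 44816658, minus strand), a close relative of *Atf4* whose product induces mitochondrial chaperones, had RPKM values much like those of *Atf4*. They were 171 and 65.3 in shControl cells, 178 and 114 in shKDM4D cells, 74.4 and 149 in shMLL1 cells, and 74.1 and 117 in shNFIB cells, the day 0 value first in each case. Per library, the RPKM of *Atf5* was between 0.718 and 1.18 times that of *Atf4*, with both extremes in shMLL1 cells. *Atf5* fell in shControl cells, with a log2 ratio of day 5 to day 0 of -1.39 (-1.45 to -1.32). The ratio in shMLL1 cells, 1.00 (0.95 to 1.05), came just short of the 2-fold limit. Against shControl cells at day 5, however, *Atf5* was past that limit in shMLL1 cells, with a log2 ratio of 1.19 (1.12 to 1.25), but not relative to *Gapdh* (0.83). Its annotated exons share 82 bases, 4.11% of its length, with *Nup62* and *Il4i1* on the opposite strand. At day 5 *Nup62* had an RPKM of 10.8 in shControl and 14.1 in shMLL1 cells, and whether the counting kept the strands apart is not stated in the sources used here.

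*Ddit3* (chromosome 10, from 127290774 to 127296288, plus strand) encodes CHOP, which is induced by ATF4 and forms dimers with C/EBP factors. Its RPKM was 88.5 and 57.6 in shControl cells, 62.1 and 58.3 in shKDM4D cells, 27.7 and 253 in shMLL1 cells, and 26.9 and 106 in shNFIB cells. The value in shMLL1 cells at day 5 stood above the other 7 libraries, and the values in shNFIB and shMLL1 cells at day 0 were the lowest and did not differ beyond counting error. *Ddit3* rose in shMLL1 cells by 3.19 on the log2 scale (3.12 to 3.26), or 9.13-fold, and in shNFIB cells by 1.98 (1.87 to 2.09). In shControl cells the log2 ratio was -0.62 (-0.70 to -0.54), under 2-fold. In shKDM4D cells it was -0.09, and 0.38 relative to *Gapdh*, so that no direction can be given there. At day 0, *Ddit3* was lower than in shControl cells by 3.29-fold in shNFIB and 3.19-fold in shMLL1 cells. The log2 ratio at day 5 to shControl cells was 2.14 (2.07 to 2.21) in shMLL1, 0.88 (0.80 to 0.97) in shNFIB and 0.02 (-0.07 to 0.11) in shKDM4D cells. *Ddit3* shares 68 exon bases, 3.97% of its length, with *Mars* on the opposite strand. *Mars* moved the other way in shMLL1 cells, from 33.3 to 21.4, but fell as *Ddit3* did in shControl cells, from 40.2 to 14.7. The part of the shared bases in these values was not tested.

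*Atf3* (chromosome 1, from 191170296 to 191218039, minus strand), an early stress gene whose product can act as a repressor, had the lowest levels of the 9 genes and rests on 9 to 263 reads per library. Its RPKM was 2.75 and 1.22 in shControl cells, 0.784 and 0.451 in shKDM4D cells, 0.523 and 3.20 in shMLL1 cells, and 0.224 and 1.76 in shNFIB cells. It spanned the widest range of the 9 genes, 14.3-fold, but its highest value, in shMLL1 cells at day 5, did not differ beyond counting error from that in shControl cells at day 0. *Atf3* rose from day 0 to day 5 by 2.97 on the log2 scale (1.95 to 4.17) in shNFIB cells and by 2.62 (2.15 to 3.12) in shMLL1 cells. It fell in shControl cells, with a log2 ratio of -1.17 (-1.65 to -0.70) that came under 2-fold when 1 was added to each RPKM (-0.75). *Atf3* was also the only member that was more than 2-fold lower in shKDM4D than in shControl cells, with log2 ratios of -1.81 (-2.40 to -1.26) at day 0 and -1.44 (-2.25 to -0.68) at day 5, the latter under 2-fold with 1 added to each RPKM (-0.62). Between the days in shKDM4D cells no change was detectable at this depth (-0.80, interval from -1.66 to 0.03).

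*Trib3* (chromosome 2, from 152337422 to 152344032, minus strand) is an ATF4 and CHOP target whose product, a pseudokinase, binds ATF4 and AKT and dampens both. Its RPKM was 27.9 and 3.21 in shControl cells, 24.2 and 6.71 in shKDM4D cells, 4.003 and 17.3 in shMLL1 cells, and 2.29 and 9.33 in shNFIB cells. The order of the 4 lines at day 0, from shControl over shKDM4D and shMLL1 to shNFIB cells, was nearly turned around at day 5, when shMLL1 cells were highest, followed by shNFIB, shKDM4D and shControl cells. Each step in both orders was larger than the counting error. Among 11469 genes ranked by their ratio of shNFIB to shControl cells at day 0, *Trib3* was number 144 from the lowest, with a log2 ratio of -3.61 (-3.93 to -3.30). Among 11503 genes ranked by their ratio of shMLL1 to shControl cells at day 5, it was number 185 from the highest, with a log2 ratio of 2.43 (2.17 to 2.69). From day 0 to day 5 it rose by 4.07-fold in shNFIB and 4.31-fold in shMLL1 cells. The change in shNFIB cells exceeded that in shControl cells by 5.14 on the log2 scale (4.72 to 5.57), and the change in shMLL1 cells by 5.23 (4.92 to 5.54).

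*Chac1* (chromosome 2, from 119351229 to 119354381, plus strand), which encodes an enzyme that degrades glutathione and is a target of both ATF4 and CHOP, went from 21.7 to 2.43 RPKM in shControl cells and from 21.3 to 5.74 in shKDM4D cells. It went from 3.44 to 12.7 in shNFIB cells and from 6.20 to 9.47 in shMLL1 cells. Unlike *Trib3*, it was highest at day 5 in shNFIB and not in shMLL1 cells, and its ratio in shMLL1 cells between the days stayed under 2-fold, with a log2 value of 0.61 (0.42 to 0.80). The log2 ratio of shMLL1 to shNFIB cells at day 5 was -0.42 (-0.62 to -0.22) for *Chac1* and 0.89 (0.71 to 1.07) for *Trib3*. Accordingly, the RPKM of *Trib3* per RPKM of *Chac1* was 1.29 and 1.32 in shControl cells and 0.668 and 0.735 in shNFIB cells at the 2 days, whereas in shMLL1 cells it was 0.645 at day 0 and 1.82 at day 5. Both genes were past 2-fold in shKDM4D cells at day 5 as well, where *Chac1* was 2.36-fold and *Trib3* 2.09-fold above shControl cells, although adding 1 to each RPKM brought both under the limit.

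*Ppp1r15a* (chromosome 7, from 45522916 to 45526268, minus strand), the feedback gene that encodes GADD34, varied less than the members above. Its RPKM was 16.9 and 22.3 in shControl cells, 15.8 and 20.2 in shKDM4D cells, 10.2 and 27.0 in shMLL1 cells, and 13.4 and 23.9 in shNFIB cells. All 4 lines were higher at day 5 than at day 0 beyond the counting error and on every scale tried, and the 4 values at day 5 lay above the 4 values at day 0. In shMLL1 cells alone was the change past 2-fold, with a log2 ratio of 1.41 (1.31 to 1.51). Against shControl cells no ratio reached 2-fold at either day, and the day 0 ratio of shNFIB cells, -0.33 (-0.47 to -0.20), turned to 0.31 relative to *Gapdh*.

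*Sesn2* and *Ddit4* encode inhibitors of mTORC1, the kinase complex that couples growth to amino acids and insulin. *Sesn2* (chromosome 4, from 132492032 to 132510501, minus strand) encodes a leucine sensor, and its RPKM was 8.30 and 5.98 in shControl cells, 7.88 and 8.96 in shKDM4D cells, 4.14 and 10.3 in shMLL1 cells, and 3.92 and 7.25 in shNFIB cells. The lowest values were those of shNFIB and shMLL1 cells at day 0, with log2 ratios to shControl cells of -1.08 (-1.29 to -0.88) and -1.002 (-1.16 to -0.84), the latter just past the 2-fold limit and short of it under 5 of 9 other settings. Between the days *Sesn2* rose past 2-fold in shMLL1 cells, with a log2 ratio of 1.32 (1.18 to 1.47), and the ratio in shNFIB cells was 0.89 (0.66 to 1.12). *Ddit4* (chromosome 10, from 59949669 to 59951834, minus strand), also known as REDD1 and as a direct target of the glucocorticoid receptor, showed another pattern. Its RPKM was 8.62 and 24.6 in shControl cells, 10.9 and 15.0 in shKDM4D cells, 8.71 and 21.3 in shMLL1 cells, and 5.46 and 24.7 in shNFIB cells. It was the only member past 2-fold upward in shControl cells, at 2.86-fold, and it rose by 4.52-fold in shNFIB and 2.45-fold in shMLL1 cells. In shKDM4D cells its ratio was 1.38-fold, and the log2 change there was smaller than in shControl cells by 1.05 (interval of the difference from -1.31 to -0.80). The values of shNFIB and shControl cells at day 5 did not differ beyond counting error.

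The ratio of day 5 to day 0 compares induced cells with cells before induction, and with no uninduced library at day 5, the medium and the longer culture cannot be told apart. In shControl cells, 5 of the 9 members fell past 2-fold, against a background of 8.56% of all 11513 expressed genes, and 1 rose, against 13.0%. The median log2 change of the members was -1.17 and that of all expressed genes was 0.03. In shKDM4D cells 2 members fell (background 8.44%) and none rose (12.8%), with a median of -0.64. With quantile normalization 4 fell there, since *Atf4* (-1.06) and *Atf3* (-1.26) passed the limit. In shNFIB cells 5 rose (12.6%) and none fell (4.96%), with a median of 1.88 against 0.09 for all genes. In shMLL1 cells 6 rose (20.4%) and none fell (6.89%), with a median of 1.32 against 0.17. *Trib3* and *Chac1* were among the genes with the lowest ratios in shControl cells, at numbers 68 and 64 of 11499. In the plot of changes by line, *Ddit4* and *Ppp1r15a* are the members that lie to the right of 0 in all 4 lines.

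**Figure D2:**
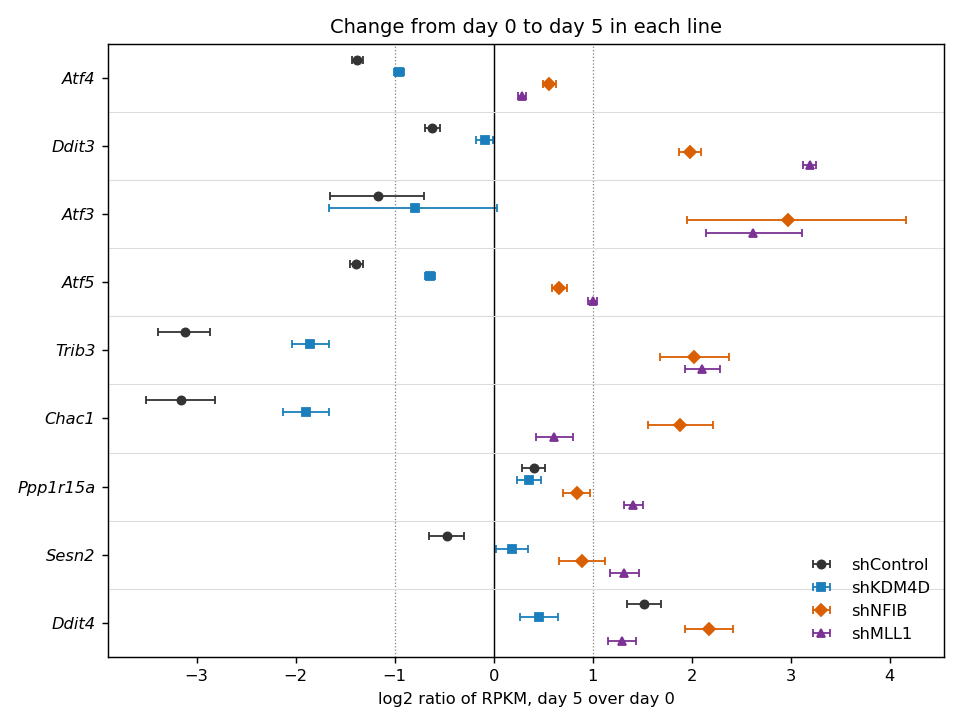
Log2 ratio of RPKM at day 5 over day 0 for each of the 9 genes, with 1 point per line and exact 95% counting intervals; dotted lines mark the 2-fold limits. The shControl points of *Trib3* and *Chac1* lie at -3.12 and -3.16, and the shNFIB and shMLL1 points of *Trib3* at 2.02 and 2.11.

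The comparison of the knockdown lines with shControl cells before induction asks how far the lines differed from the control already at day 0. All 3 ratios share the shControl library of that day. In shNFIB cells 7 of the 9 members were lower past 2-fold (background 6.05%) and none was higher (2.95%), and in shMLL1 cells 6 were lower (7.43%) and none was higher (1.67%). The median log2 ratio of the members was -1.40 in shNFIB and -1.20 in shMLL1 cells, against 0.03 and -0.07 for all expressed genes. In shKDM4D cells 1 member, *Atf3*, was lower (4.26%), none was higher (1.98%), and the median was -0.07. Here *Chac1* (-0.03, interval from -0.17 to 0.12) and *Sesn2* (-0.07, interval from -0.24 to 0.09) did not differ from shControl cells beyond counting error. Relative to *Gapdh*, 4 members in place of 7 were lower past 2-fold in shNFIB cells, as *Atf4* (-0.76), *Atf5* (-0.57) and *Sesn2* (-0.44) came under the limit, while in shMLL1 cells *Atf4* passed it (-1.06).

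At day 5 no member was lower past 2-fold in shMLL1 (background 4.02%) or shNFIB cells (5.67%). In shMLL1 cells 5 members were higher past 2-fold (background 5.25%), namely *Ddit3*, *Atf3*, *Atf5*, *Trib3* and *Chac1*. Of these, *Atf5* was under the limit relative to *Gapdh* (0.83) and *Atf3* when 1 was added to each RPKM (0.92). In shNFIB cells 2 were higher (5.54%), and in shKDM4D cells 2 were higher (1.88%) and 1 lower (4.57%). The 2 higher members were *Trib3* and *Chac1* in both lines. The median log2 ratio of the members was 1.19 in shMLL1, 0.54 in shNFIB and 0.58 in shKDM4D cells, against 0.07, 0.09 and 0.01 for all expressed genes. *Ddit4* and *Ppp1r15a* did not pass 2-fold in any line at either day.

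**Figure D3:**
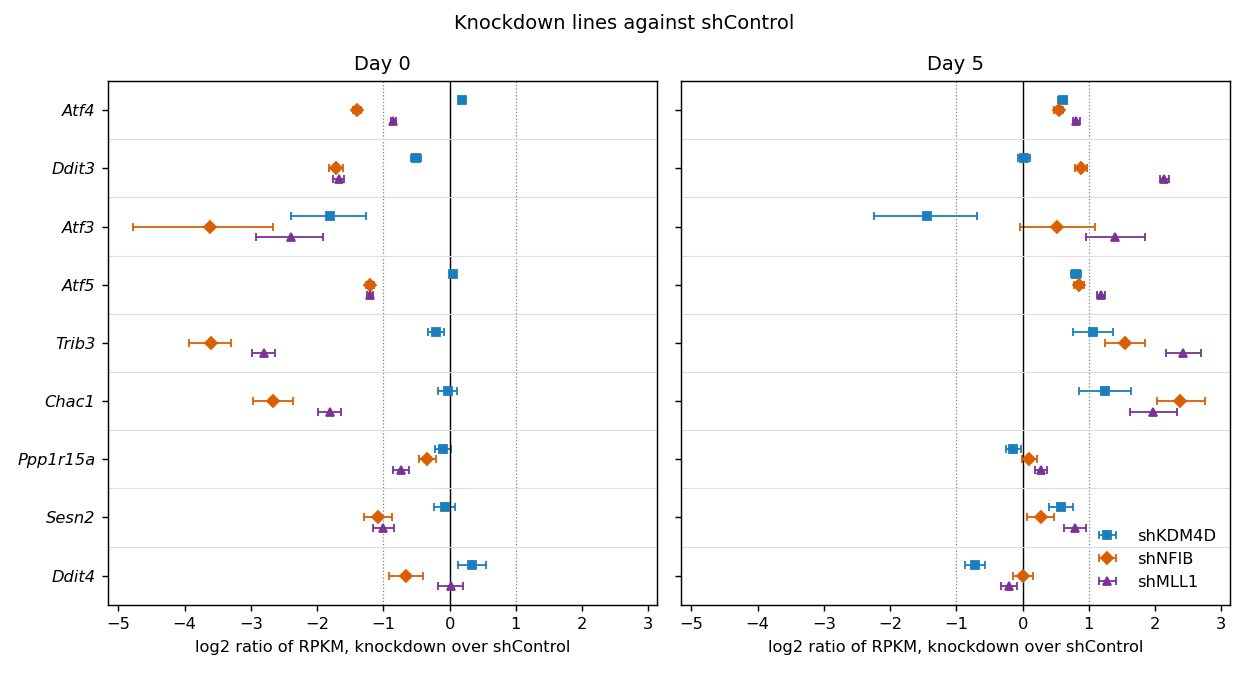
Log2 ratio of RPKM in each knockdown line over shControl cells at day 0 (left) and day 5 (right) for the 9 genes, with exact 95% counting intervals and dotted lines at the 2-fold limits. The shNFIB point of *Trib3* lies at -3.61 at day 0 and at 1.54 at day 5.

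The levels of *Ddit3* and *Trib3* were also set against that of *Atf4* in the same library. Scaling each library by a single factor leaves this ratio of RPKM values unchanged, but quantile normalization does not. *Ddit3* per *Atf4* was 0.473 and 0.802 in shControl cells at day 0 and day 5, 0.293 and 0.534 in shKDM4D cells, 0.268 and 2.01 in shMLL1 cells, and 0.379 and 1.01 in shNFIB cells. The ratio was higher at day 5 than at day 0 in all 4 lines, and the value in shMLL1 cells at day 5 (interval from 1.96 to 2.06) was the highest of the 8. *Trib3* per *Atf4* went down between the days in shControl cells, from 0.150 to 0.0447, and in shKDM4D cells, from 0.114 to 0.0615. It went up in shNFIB cells, from 0.0323 to 0.0890, and in shMLL1 cells, from 0.0386 to 0.137. At day 5 the 4 lines kept for *Trib3* per *Atf4* the order of *Trib3* itself.

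**Figure D4:**
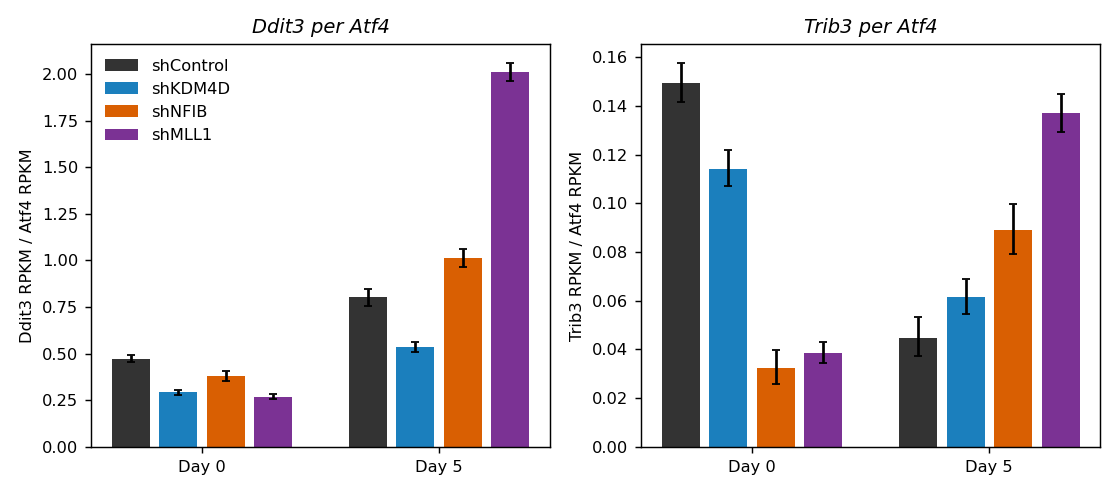
RPKM of *Ddit3* (left) and *Trib3* (right) divided by the RPKM of *Atf4* in the same library, as bars from 0 for the 4 lines at day 0 and day 5 with 95% counting intervals. The shMLL1 bar of *Ddit3* reaches 2.01 at day 5, while the shControl bar of *Trib3* goes from 0.150 at day 0 to 0.0447 at day 5.

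Over the 8 libraries the members fell into patterns that can be described by Pearson's r of log2(RPKM + 1), given here with no test because the 8 points share lines and days. *Trib3* followed *Atf5* (r = 0.97), *Atf4* (r = 0.94) and *Chac1* (r = 0.93). *Ddit3* followed *Atf3* (r = 0.88), *Sesn2* (r = 0.86) and *Ppp1r15a* (r = 0.84) more closely than *Atf4* (r = 0.38). *Ddit4* followed *Ppp1r15a* (r = 0.85) and had an r of -0.12 with *Atf4*. Outside the 9 genes, among 4407 expressed genes with a range of at least 1 on that scale, the 5 genes most like *Trib3* were *Cyb5r1* (r = 0.98), *Akna* (0.96), *Apobr* (0.95), *Sars* (0.95) and *Aldh1l2* (0.93). *Sars* encodes the seryl-tRNA synthetase and *Aldh1l2* a mitochondrial folate enzyme, and both stand on the lists of stress response genes described next. Those most like *Ddit4* were *Lpar1* (r = 0.97), *Ccdc189* (0.96), *Pdgfrb* (0.95), *Des* (0.95) and *Rgs3* (0.95), of which *Pdgfrb* encodes a growth factor receptor of mesenchymal cells and *Des* the intermediate filament protein desmin.

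Other genes of the pathway were counted on 8 lists. Of 9 expressed genes for the kinases, subunits and phosphatase of the eIF2 step, none passed 2-fold between the days in shControl and shKDM4D cells. The background there was 13.0% and 12.8% for a rise and 8.56% and 8.44% for a fall. In shNFIB and shMLL1 cells 1 rose, not above the background of 12.6% and 20.4%, and none fell (4.96% and 6.89%). *Eif2ak2*, which encodes PKR, the kinase activated by double-stranded RNA, was the member of this list that rose, from 20.999 to 46.2 RPKM in shNFIB cells and from 20.1 to 67.0 in shMLL1 cells, against 20.5 and 25.6 in shControl cells, although relative to *Gapdh* no gene of this list passed 2-fold in shNFIB cells. *Impact*, an inhibitor of the amino acid sensing kinase GCN2, was lowest in shMLL1 cells at both days, with 7.12 and 10.7 RPKM against 23.9 and 23.4 in shControl cells. Among 16 ER chaperones and genes of the XBP1 and ATF6 arms, 2 rose in shControl cells, none in shKDM4D and shNFIB cells and 3 in shMLL1 cells, and none fell in any line. The counts in shControl and shMLL1 cells were close to the background of 13.0% and 20.4% of all expressed genes. Relative to *Gapdh*, 6 of the 16 rose in shKDM4D cells. *Dnajb9*, an XBP1 target that encodes an ER chaperone, rose in shControl cells from 10.7 to 35.2 and was 13.3 in shMLL1 cells at day 5. *Sdf2l1*, another ER chaperone gene, was 13.8 and 14.2 in shControl cells and 7.13 and 11.6 in shMLL1 cells.

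The amino acid arm of the programme fell in shControl cells along with *Atf4*. Of 12 expressed amino acid and one-carbon enzymes, 10 fell there between the days (background 8.56%, median log2 change -2.16). In shKDM4D cells 9 fell (background 8.44%, median -1.47), and 6 relative to *Gapdh*. In shNFIB cells 1 rose (background 12.6%) and none fell, with a median of 0.42 that turned to -0.14 relative to *Gapdh*. In shMLL1 cells 2 fell (background 6.89%) and none rose, with a median of -0.35. *Shmt2*, which encodes the mitochondrial serine hydroxymethyltransferase, went from 69.6 to 10.9 RPKM in shControl cells and from 49.4 to 19.9 in shMLL1 cells. *Cth*, which encodes the enzyme that makes cysteine from cystathionine, rose in shNFIB cells from 0.864 to 2.87. At day 0, 11 of the 12 were lower in shNFIB than in shControl cells (background 6.05%, median -1.31), and 3 of the 12 relative to *Gapdh*. In shMLL1 cells 6 were lower (background 7.43%, median -1.02). The list thus shared with the 9 regulators the low level at day 0 in these 2 lines, but in shMLL1 cells its median did not share their rise at day 5.

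Transporters and tRNA synthetases were counted in the same way. Of 9 expressed amino acid transporters, 5 fell (background 8.56%) and 1 rose (13.0%) in shControl cells, and 5 fell in shKDM4D cells (8.44%). None passed in shNFIB cells, and 2 rose in shMLL1 cells (20.4%). The rises in shControl and shMLL1 cells were close to the background. In shMLL1 cells 1 rose and 2 fell with median-of-ratios scaling or quantile normalization, and in shNFIB cells 2 fell relative to *Gapdh*. *Slc7a5*, which encodes the light chain of the large neutral amino acid transporter, went from 64.1 to 9.03 RPKM in shControl, from 45.1 to 15.3 in shKDM4D, from 16.9 to 31.4 in shNFIB and from 27.2 to 24.7 in shMLL1 cells. *Slc6a9*, a glycine transporter gene, fell from 6.53 to 0.765 in shControl cells. Of 18 cytosolic aminoacyl-tRNA synthetases, 12 fell in shControl cells (background 8.56%), 9 in shKDM4D cells (8.44%) and none in shNFIB or shMLL1 cells. Relative to *Gapdh* the 9 falling in shKDM4D cells became 0, and 2 fell in shNFIB and 1 in shMLL1 cells, while with median-of-ratios scaling 2 fell in shMLL1 cells. *Aars*, for alanine, went from 67.2 to 18.9 in shControl and from 35.04 to 36.2 in shMLL1 cells, and *Cars*, for cysteine, from 22.3 to 6.45 and from 19.99 to 11.6. At day 0, 5 synthetases were lower in shNFIB than in shControl cells (background 6.05%), none of them relative to *Gapdh*. None was lower in shMLL1 cells (background 7.43%), where 4 were relative to *Gapdh*.

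Of 12 other expressed ATF4 and CHOP targets, 4 rose in shNFIB (background 12.6%) and 5 in shMLL1 cells (20.4%), with none falling. In shControl cells 1 rose (13.0%) and 2 fell (8.56%), and in shKDM4D cells 1 rose (12.8%) and 3 fell (8.44%). The rises in shControl and shKDM4D cells were not above the background. Relative to *Gapdh*, 2 rose and 1 fell in shNFIB cells, and 2 rose and none fell in shKDM4D cells. *Cdsn*, which encodes corneodesmosin, had the widest range, with 98.3 and 28.1 RPKM in shControl cells, 35.6 and 38.6 in shKDM4D cells, 3.998 and 37.8 in shMLL1 cells, and 2.26 and 35.9 in shNFIB cells. *Ndrg1*, a gene of stress and hypoxia, was higher at day 5 in all 4 lines, including shControl cells, where it went from 27.0 to 57.6. Of 10 expressed genes for other bZIP factors, 1 rose in shControl cells and 2 in shMLL1 cells, counts close to the 13.0% and 20.4% of all expressed genes, and none rose in shKDM4D and shNFIB cells. Relative to *Gapdh*, 1 rose in each line but shNFIB. *Cebpd*, an early adipogenic factor, rose from 19.6 to 48.1 in shControl and from 16.4 to 45.2 in shMLL1 cells, and *Nfe2l1*, a regulator of proteasome genes, was 82.0 and 71.3 in shControl and 30.2 and 60.4 in shMLL1 cells. Of the 5 expressed paralogues, *Sesn1* was 7.22 and 20.9 RPKM and *Sesn3* 4.84 and 13.0 in shControl cells, and both were higher at day 5 in each of the 4 lines, unlike *Sesn2*.

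**Figure D5:**
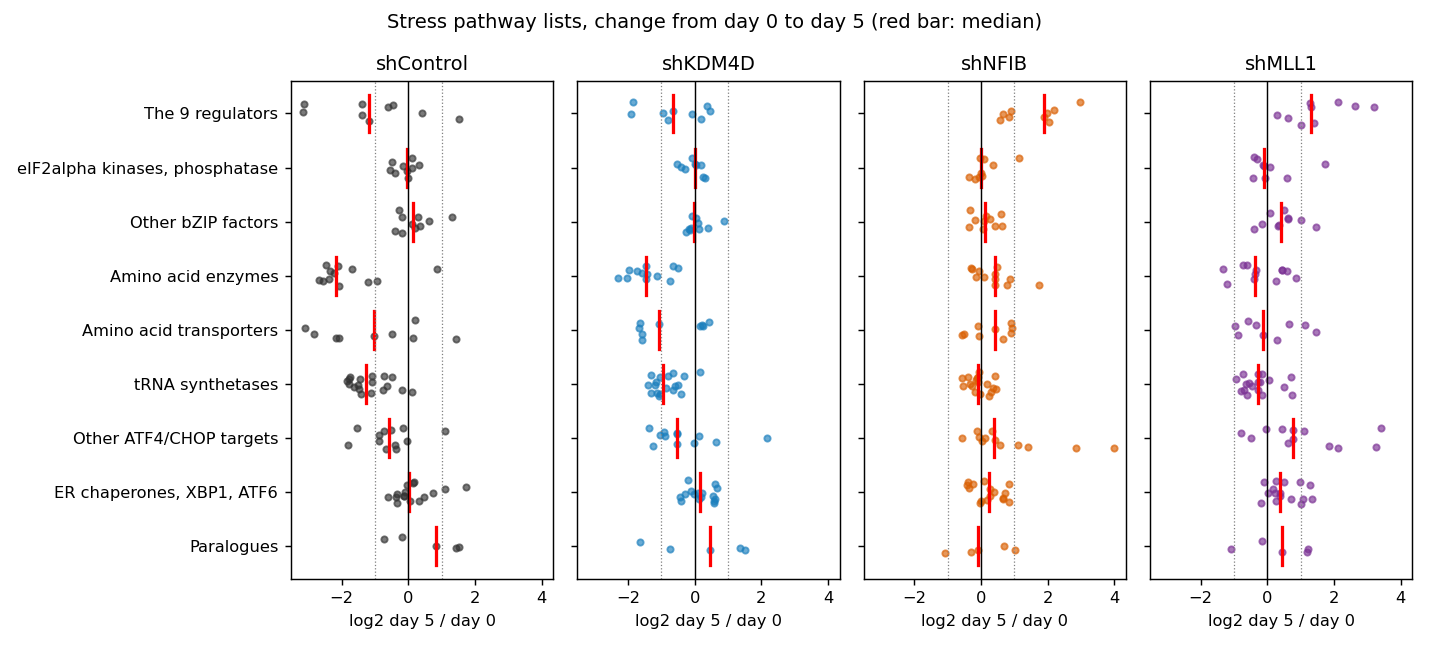
Log2 ratio of RPKM at day 5 over day 0 in the 4 lines for the expressed genes of the 9 regulators and of the 8 pathway lists, where each point is a gene, the red bar is the median of the list and dotted lines mark the 2-fold limits. The median of the 9 regulators lies at -1.17 in shControl and at 1.32 in shMLL1 cells, and that of the amino acid and one-carbon enzymes at -2.16 and -0.35.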

How the data were processed

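Total RNA of 8 samples was made into libraries with the SMARTer Stranded RNA-Seq Kit and sequenced on a HiSeq 2500 by the authors' provider. Mapping to GRCm38 was done by the authors in CLC Genomics Workbench, version 11.0.1, with a cost of 2 for a mismatch and of 3 for an insertion or a deletion, and with 0.8 as both the length and the similarity fraction. They deposited RPKM values per gene and library. The quantile normalization named in the methods is not visible in the deposited values, since the low values step by the worth of 1 read. The gene annotation and the strand setting of the counting are not given in the sources used here.

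Reads were recovered from the deposited RPKM and the exon lengths of GENCODE M21, with between 96.2% and 96.6% of the values of each library within 0.02 of a whole read. Libraries held 15842218 to 38202570 reads, so that 3 reads on 1 kb of exons correspond to an RPKM of 0.189 in the shallowest and 0.0785 in the deepest. *Ddit3* is listed under 2 names. The row used gives whole reads with the exon length 1713 of the CHOP gene, and the other is listed at 0 in all 8 libraries. Log2 ratios were taken without a pseudocount, with exact 95% Clopper-Pearson intervals conditional on the reads of both libraries and Wald intervals for differences between changes. A gene counted as higher or lower past 2-fold, among the genes that reached an RPKM above 1 in any library. With 1 library per line and day no model was fitted and the count test was not run on the recovered reads.

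Named genes were the 9 members, the targeted genes, the 2 genes of each pathway list with the widest range, and the 5 genes most like *Trib3* and *Ddit4*. *Mars*, *Nup62*, *Gapdh*, *Thy1*, *Ly6a*, *Tek*, *Cdh1* and *Trib1* were added after their values were seen. Members, lists and the limit were chosen with earlier results of these data known. The recovery of the depth, the calls past 2-fold and the exact intervals of the ratios were tested on simulated reads. The simulation did not cover the Wald intervals, the other scalings, the correlations or the promoter motifs. Versions were numpy 2.4.6, scipy 1.17.1, pandas 2.3.3 and matplotlib 3.10.9 under Python 3.11.15.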

Additional observations from a re-analysis of the deposited data

Results flagged for a closer look

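Members are given here when their change from day 0 to day 5 went one way in shControl cells and the opposite way in a knockdown line, each beyond its own counting interval. With 1 library per line and day, the difference between the lines was not tested against the spread between cultures. This held for 7 of the 9 members in shNFIB cells, 7 in shMLL1 cells and 1 in shKDM4D cells, and each line was set against the same shControl libraries. How many of all expressed genes meet this rule was not counted, so these counts have no background and are a description only. In shNFIB cells the log2 change exceeded that in shControl cells by 1.94 for *Atf4*, which lost its rise relative to *Gapdh*, by 2.60 for *Ddit3* and by 4.14 for *Atf3*. It was larger by 2.05 for *Atf5*, by 5.14 for *Trib3*, by 5.04 for *Chac1* and by 1.36 for *Sesn2*. In shMLL1 cells the excess was 1.66 for *Atf4*, 3.81 for *Ddit3*, 3.78 for *Atf3* and 2.39 for *Atf5*. For *Trib3* it was 5.23, for *Chac1* 3.77 and for *Sesn2* 1.79. The change of *Atf4* within shMLL1 cells, 0.28, was close to the median of 0.17 over all expressed genes. In shKDM4D cells the excess of *Sesn2* was 0.66.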

How the results depend on the processing

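No replicates could be paired within a line, because each line and day has 1 library, so the groups compared share 1 replicate number. Pairing day 0 with day 5 over the 4 lines was not done. The 4 lines carry different shRNAs and were not used as replicates of a day effect, and leaving out a library would leave a condition empty. Of the member ratios reported past 2-fold, 10 came under it in 1 or more settings, and 3 others passed it. Relative to *Gapdh*, 38 of the 90 member ratios stayed inside their counting interval, against 72 with 1 added to each RPKM and 73 with median-of-ratios scaling or quantile normalization. Of all 90, the sign was kept by 89 with median-of-ratios scaling, 88 with quantile normalization, 82 relative to *Gapdh* and 90 in the other settings. Adding 1 to each RPKM left 0 members higher (in place of 2) and 0 lower (1) in shKDM4D than in shControl cells at day 5, and 4.004% of all genes higher (7.80%) and 2.89% lower (6.08%) over 10 comparisons. With quantile normalization 4 members fell in shKDM4D cells (2), and relative to *Gapdh* 4 were lower in shNFIB than in shControl cells at day 0 (7). Without a filter on RPKM, 72 ratios of the pathway lists were higher (46), and 16.3% of all genes were higher and 12.0% lower.

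The share of genes higher among all genes past 2-fold was 74.7% in shMLL1 cells between the days, 60.3% with median-of-ratios scaling and 52.8% with quantile normalization. In shNFIB cells it was 71.8%, 56.2% with quantile normalization and 29.4% relative to *Gapdh*. Relative to *Gapdh* it went from 60.2% to 84.6% in shKDM4D cells between the days, and against shControl cells from 31.8% to 10.7% in shKDM4D and from 32.8% to 86.8% in shNFIB cells at day 0 and from 56.6% to 31.5% in shMLL1 cells at day 5. For shMLL1 over shControl cells at day 0 quantile normalization moved it from 18.3% to 28.7%. The median log2 ratio of all genes moved by up to 0.64 relative to *Gapdh* (shNFIB over shControl cells at day 0), by up to -0.27 with quantile normalization and by up to -0.21 with median-of-ratios scaling (both in shMLL1 cells between the days). Leaving out transcripts that resemble ribosomal RNA, a setting chosen after seeing the data, moved it by up to -0.11. Relative to that median, the members of shMLL1 cells still had a log2 change of 1.11 against -0.04 with median-of-ratios scaling.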
